A study of Mus musculus with 2 samples.

Results

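The clustered protocadherins are cell-surface proteins encoded in 3 neighbouring gene clusters, alpha, beta and gamma, on mouse chromosome 18. The members here were all genes of GENCODE M21 on that chromosome that are annotated as protein coding and whose symbol begins with Pcdha, Pcdhb or Pcdhg, which gave 57 of 21853 protein-coding genes. They comprised 5 C-type genes (Pcdhac1, Pcdhac2, Pcdhgc3, Pcdhgc4 and Pcdhgc5), 12 other alpha genes, 22 beta genes, 12 gamma A genes and 6 gamma B genes. The rule used the annotation alone and no measured value, but it was set with earlier results of these data known. Chromatin open to the nuclease DNase I was mapped by DNase-seq in 2 libraries of 1 group, labelled as biological replicates of hippocampus from B6CASTF1/J females aged 14 days, with 3 females named for each library. B6CASTF1/J mice are a first-generation hybrid of C57BL/6J and CAST/EiJ, and the deposited values do not separate the parental alleles. Both libraries carry the same donor identifier, and no label says whether they came from separate animals, so part of their spread may be technical. There was no second condition, and each library is described on its own.

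Alpha and gamma genes each have a variable first exon with its own promoter, which is spliced to constant exons shared by the whole cluster, whereas a beta gene codes its whole protein in a single exon. A neuron chooses a few of the variable promoters, apparently at random and separately on each chromosome copy, while the C-type genes are transcribed more evenly among neurons. The resulting mixture of proteins binds homophilically and lets the branches of a neuron tell themselves from those of its neighbours. Most variable promoters carry a conserved sequence element and a site for CTCF, a protein that together with cohesin holds chromatin loops, and the loops join promoters to distal enhancers such as those downstream of the alpha constant exons and beyond the gamma cluster.

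The tissue label was checked on marker genes. Of 18 neuronal and glial markers, 13 had a peak within 500 bp of the farthest-upstream first exon in both libraries; Zbtb20, Rbfox3 and Pdgfra had one in 1 library there, and Aqp4 and Cx3cr1 had none. At any annotated first exon all 18 had one in both, against 62.7% of all protein-coding genes. Of 6 markers of choroid plexus, liver and muscle, 0 had a peak in both libraries by either measure: Apob and Myod1 had one in replicate 1 alone, and Ttr, Folr1, Alb and Ckm had none. Each library has 2 peak lists, and the longer numbered 115699 peaks for replicate 1 and 167829 for replicate 2, with median signals of 0.821 and 0.485. The signal is the authors' value for the height of a peak; how it was scaled is not recorded, the read depth is unknown, and signals were compared only within a library. The percentile of a peak below is its rank among all peaks of its own library.

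Few clustered protocadherin promoters were open in bulk hippocampus, and the 5 C-type genes were among those open in both libraries. A peak overlapped the first exon or the 500 bp on either side of it in 13 of the 57 members in replicate 1, against 63.0% of all protein-coding genes, and in 26 members in replicate 2, against 60.6% of all genes. In both libraries a peak was found at 10 members, or 17.5%, against 58.9% of all genes. A further 3 members had one in replicate 1 alone and 16 in replicate 2 alone, and 28 members had none. With the authors' shorter lists, 5 members had a peak in both libraries, and Pcdhgc5 was the C-type gene that lost its call. With the longer list of replicate 2 reduced to its strongest 115699 peaks, the number in replicate 1, members with a peak in replicate 2 numbered 11 in place of 26, and 9 had one in both libraries. Shares over all genes under the shorter and reduced lists are not given, so 58.9% is no background for these counts. The median length of a member's first exon was 2608 bp, against 208 bp over all genes, and 297 of 488 genes with a first exon of at least 2 kb had a peak in both libraries, or 60.9%. Nearly all members are themselves among these 488 genes. The median signal over members with a peak was 0.836 in replicate 1 and 0.297 in replicate 2, against 5.58 and 2.52 over all genes with a peak. In bulk tissue, a promoter open in few cells and a promoter weakly open in many cells cannot be told apart.

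**Figure D1:**
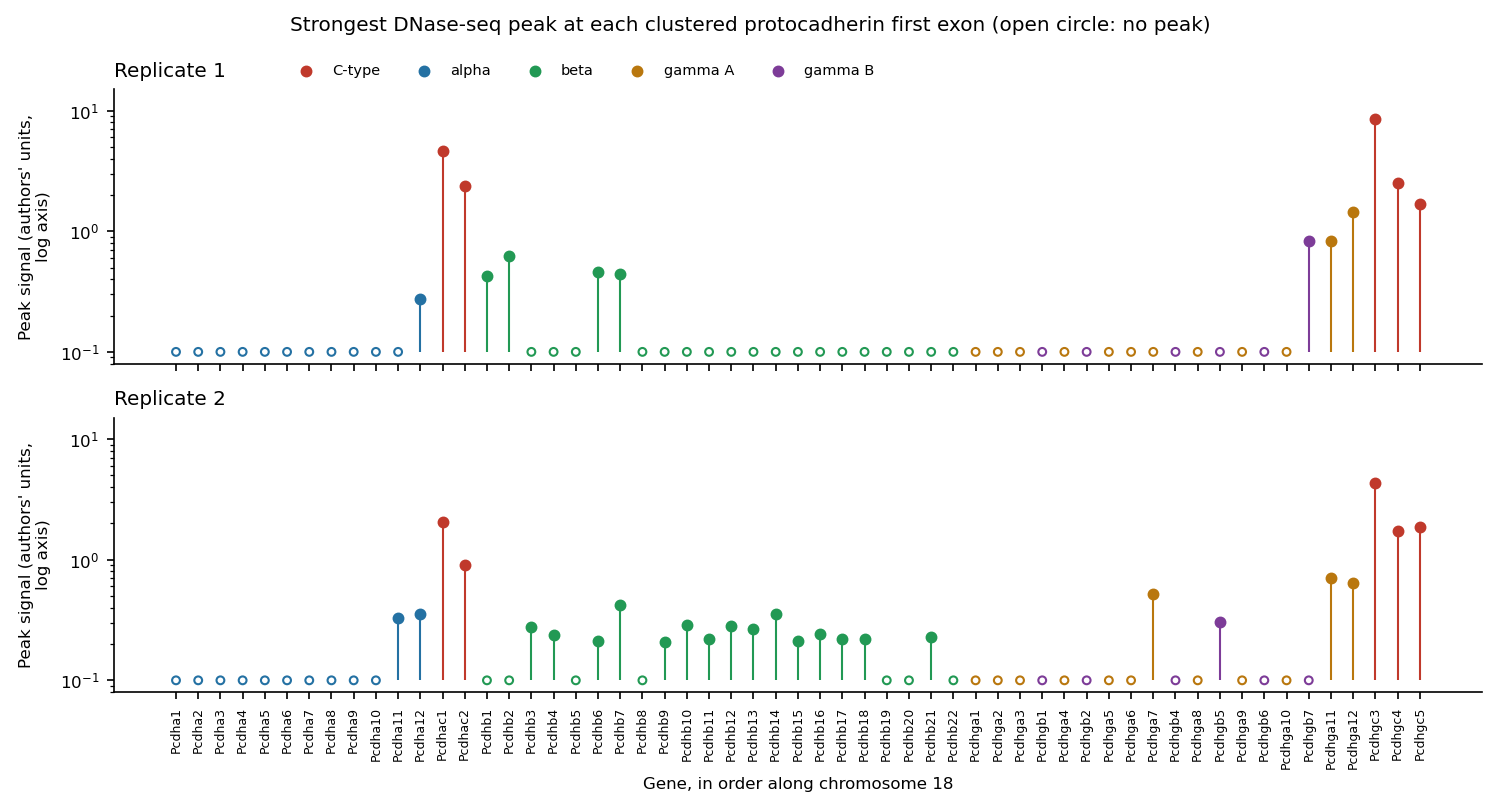
Signal of the strongest peak at each of the 57 members (log axis, authors' units), in order along the chromosome, with replicate 1 above and replicate 2 below and open circles for members without a peak. The 5 C-type genes carry filled points in both libraries, with Pcdhgc3 highest at 8.45 and 4.35, and most alpha and gamma genes are open circles in both.

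The deposited base-level calls gave the same picture. The authors' files list the runs of bases whose rate of DNase I cuts passed a false discovery rate (FDR) under 0.05. In the members' first exons with their flanks, 3.77% of bases were listed in replicate 1 and 3.51% in replicate 2, a mean of 3.64% ± 0.179 (SD, n = 2). Over all protein-coding genes the mean was 39.7% ± 3.17 (SD, n = 2), and over the 488 genes with a first exon of at least 2 kb the shares were 23.8% in replicate 1 and 17.0% in replicate 2. Those 488 genes include nearly all members. The C-type genes held most of the listed bases, with 38.0% and 23.1% of their windows listed in replicates 1 and 2, and the other 52 members together had 0.781% and 1.80%.

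The 5 C-type genes stood at the strong end of the family. Pcdhgc3, the C-type gene nearest the variable gamma exons, had a strongest peak of 8.45 in replicate 1 and 4.35 in replicate 2, at percentiles 95.5 and 97.7. The peak spanned the start of the exon in both libraries (chr18:37806201-37806480 in replicate 1, mm10). In replicate 1, 5 separate peaks lay along the exon, and in replicate 2 there were 2. The antisense transcript BC037039 starts 1512 bp into the exon, within a peak of 0.638 in replicate 1 and within none in replicate 2.

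Pcdhac1, the upstream C-type gene of the alpha cluster, had a peak across its start of 4.605 in replicate 1 and 2.07 in replicate 2, at percentiles 90.2 and 92.4. All bases between 200 bp upstream and 100 bp downstream of its start were listed at an FDR under 0.05 in both libraries, as they were at Pcdhgc3. Pcdhac2, the last variable exon of the alpha cluster, had 2.38 and 0.911. Its peaks were spread over the first part of the exon, with 4 partly overlapping peaks in replicate 1 and 3 in replicate 2. Neither gene had a member close to it in strength among the 12 other alpha genes.

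At the gamma C-type genes farther downstream the open sites lay off the annotated start. Pcdhgc4 had 2.49 and 1.72 in replicates 1 and 2, and in replicate 1 the peak began 202 bp downstream of the start. In replicate 1 none of the 300.0 bp around its start was listed, and in replicate 2 the share was 6%. Pcdhgc5 had 1.67 and 1.86, at percentiles 73.9 and 91.1, and its strongest peak lay wholly upstream of the start, beginning at position -292 in both libraries. Replicate 1 had a second peak, of 1.12, at 237 to 323 bp downstream of the start. All 5 C-type genes lay above the median of all peaks in each library. The median over all protein-coding genes with a peak was higher, at 5.58 in replicate 1 and 2.52 in replicate 2. Of the 5, only Pcdhgc3 exceeded it, in both libraries. Pcdhgc3 was the strongest of the 5 and Pcdhac1 the next in both libraries, and the order of the other 3 differed between the libraries.

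Footprints, short runs protected from cutting inside open chromatin where a bound protein can lie, were found at 9 members in both libraries, against 57.1% of all protein-coding genes. They included all C-type genes, with 57 footprints in replicate 1 and 30 in replicate 2, and 19 of those in replicate 1 overlapped one of replicate 2. The other 52 members held 17 and 34 footprints, and 6 of those in replicate 1 overlapped one of replicate 2.

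**Figure D2:**
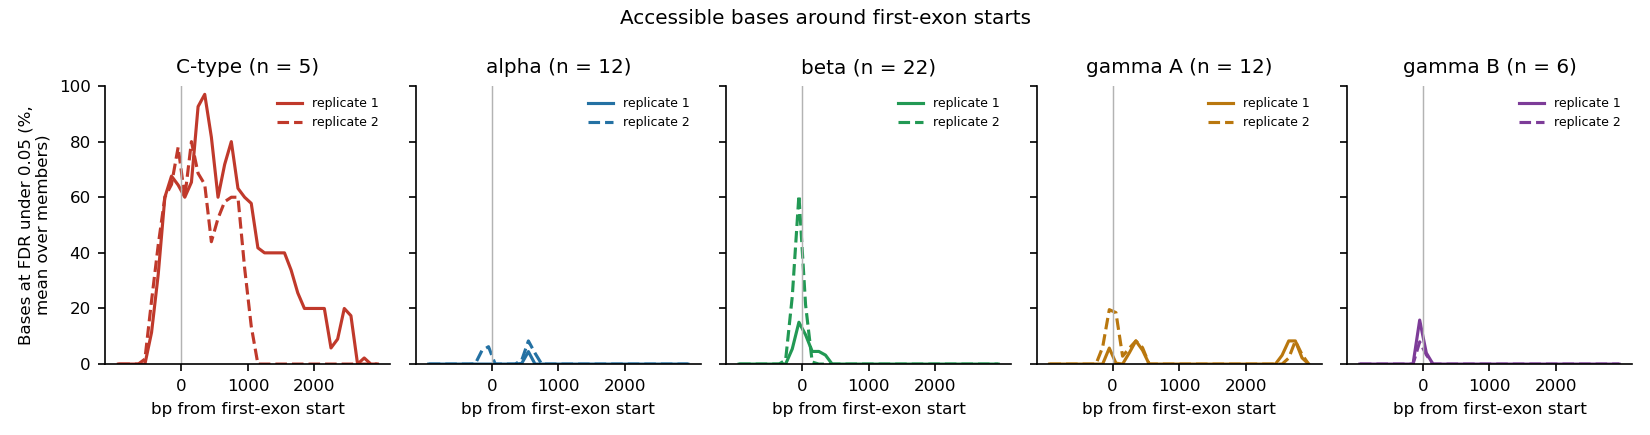
Share of bases listed at an FDR under 0.05 in 100-bp steps around the start of the first exon (percent, mean over the members of a group), with replicate 1 as solid and replicate 2 as dashed lines. The C-type genes show a broad open stretch in both libraries, and the beta genes a narrow one just upstream of the start that reaches 60.7% in replicate 2 and 15% in replicate 1.

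Nearly all of the 12 alpha genes outside the C-type had no peak. Only Pcdha12, the last of the row before Pcdhac1, had a peak in both libraries, of 0.274 in replicate 1 and 0.358 in replicate 2, at percentiles 8.09 and 33.0. That peak lay inside the exon, and the antisense transcript Gm10545 begins 530 bp from the exon's start, within the peak in both libraries. At the start of Pcdha12 itself no base was listed in either library. Pcdha11, named after its value was seen, had a peak of 0.329 upstream of its start in replicate 2 and none in replicate 1. The other 10 had none.

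The beta genes gave a faint but regular pattern in replicate 2 that replicate 1 hardly showed. A peak was found at 4 of 22 beta genes in replicate 1 and at 15 in replicate 2, and at 2 in both. Of the 15 peaks in replicate 2, 14 lay within 250 bp upstream and 100 bp downstream of the start, with signals between 0.208 and 0.421. The remaining call, singled out after its value was seen, was that at Pcdhb17, the peak at the start of its neighbour Pcdhb18, which falls within 500 bp of the end of the Pcdhb17 exon. The beta peaks of replicate 2 were among the weakest in their library, with a median percentile of 12.5.

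Pcdhb7 had 0.441 in replicate 1 and 0.421 in replicate 2, at percentiles 21.9 and 42.6, and was the strongest beta gene by the smaller of its percentiles. Pcdhb6 had 0.456 and 0.213. Pcdhb1, the beta gene nearest the alpha cluster and described as lacking the conserved promoter element, had a peak of 0.426 in replicate 1 and none in replicate 2. Its neighbour Pcdhb2, named after its value was seen, also had one in replicate 1 alone, of 0.623. The 5 beta genes with no peak in either library were Pcdhb5, Pcdhb8, Pcdhb19, Pcdhb20 and Pcdhb22, likewise named after their values were seen.

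The number of beta genes called in replicate 2 depended on how deep its list was read. With the reduced list of replicate 2, a peak remained at 2 of 22 beta genes, against 4 in replicate 1. The base-level calls do not depend on the peak list but come from the same alignment of each library. On chromosome 18 as a whole they list 1238490 bases in replicate 1 and 1814633 in replicate 2. For the stretch from 200 bp upstream to 100 bp downstream of a start, no share over all genes is given. Among the beta genes, 5 in replicate 1 and 15 in replicate 2 had listed bases in this stretch. Pcdhb14, named after its value was seen, had no peak in replicate 1. There, 12.3% of the bases in this stretch were listed in replicate 1 and 85.3% in replicate 2. The part of sequencing depth in the difference between the libraries was not tested.

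In the gamma cluster the calls gathered at the downstream end. Among the 12 gamma A genes, Pcdhga11 had a peak across its start of 0.828 in replicate 1 and 0.704 in replicate 2, at percentiles 50.2 and 67.6. Pcdhga12, the last variable gamma exon before the C-type genes, had strongest peaks of 1.44 in replicate 1 and 0.640 in replicate 2, at different sites. Its open sites lay inside the exon, and the stronger one of replicate 1 lay 2601 to 2800 bp from the start, across an annotated start of the antisense transcript Gm26672. The peak of replicate 2 that overlapped it had 0.340. The site nearer the start, up to 440 bp from it, had 1.28 in replicate 1 and 0.640 in replicate 2. Pcdhga7, named after its value was seen, had a peak of 0.519 in replicate 2 alone, and the other 9 gamma A genes had none.

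No gamma B gene had a peak in both libraries. Pcdhgb7 had one of 0.836 in replicate 1 alone and Pcdhgb5 one of 0.306 in replicate 2 alone, each across the start. Pcdhgb1, Pcdhgb2, Pcdhgb4 and Pcdhgb6 had none in either library. Between Pcdhga11 and Pcdhga12 lies Pcdhgb8, which the annotation gives as a polymorphic pseudogene and which was therefore no member; it was singled out after its values were seen. Just upstream of its first exon both libraries had a peak (chr18:37761581-37761760), of 1.51 in replicate 1 and 0.813 in replicate 2, higher than at any gamma A or gamma B member in the same library.

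**Figure D3:**
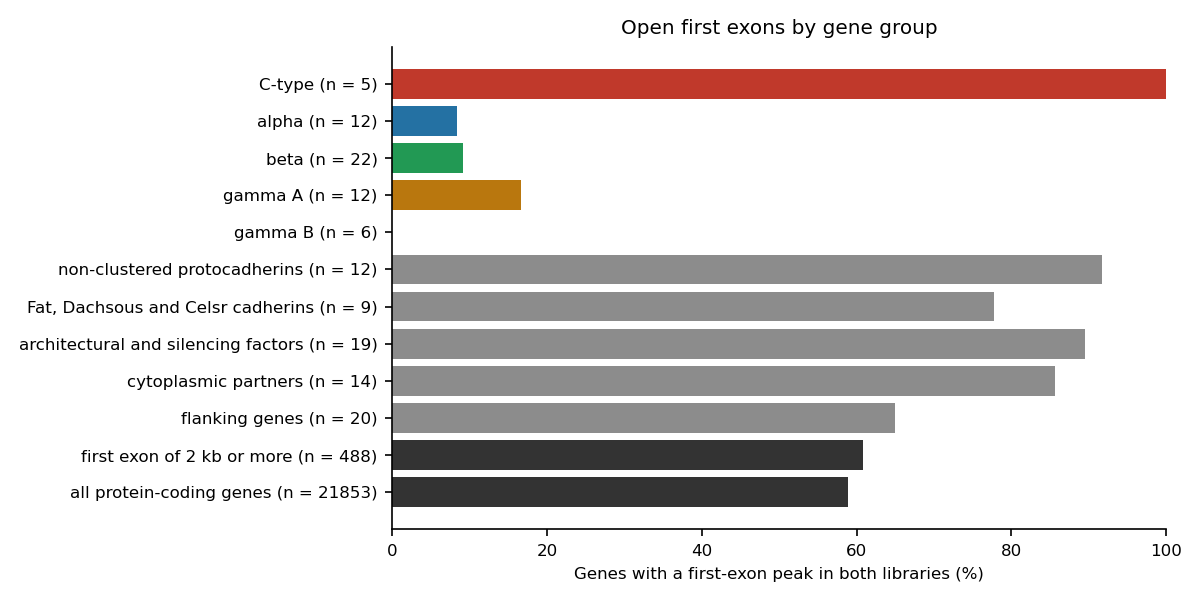
Share of genes with a first-exon peak in both libraries (percent) for the 5 groups of members, for other gene lists in grey and for all protein-coding genes in black, with the number of genes in brackets. All C-type genes, 1 of 12 alpha, 2 of 22 beta, 2 of 12 gamma A and 0 of 6 gamma B genes are called, against 58.9% of all genes.

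Features of the promoter sequence differed between the groups. Observed over expected CpG within 500 bp of the start had a median of 0.670 in C-type, 0.686 in alpha, 0.378 in beta, 0.588 in gamma A and 0.650 in gamma B genes, and of 0.561 over all genes. The C-type genes, all open, ranged from 0.233 at Pcdhgc5 to 0.798 at Pcdhgc3. Outside the C-type, the median was 0.418 over the 24 members with a peak in at least 1 library and 0.650 over the 28 without. The part of CpG content in this difference was not tested. Because the variable exons resemble each other, reads there can fail to map to a single place, and the share of 32-base words of this window that occur once in the genome was computed from the reference. Its median was 100% in C-type, 77.9% in alpha, 100% in beta, 98.1% in gamma A and 80.8% in gamma B genes. The groups with repeated sequence, alpha and gamma B, had few peaks. The 9 gamma A genes without a peak had between 93.9% and 99.9% unique words, and 14 of the 28 members without a peak had at least 95%, against 15 of the 24 members outside the C-type with a peak in at least 1 library. The medians of these 2 sets were 94.8% and 99.9%. Beside the low counts in alpha and gamma B, the part of read mapping was not tested.

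The letters AGNNGGCGC, which form a core of the CTCF motif, were searched on both strands within 500 bp of the start. They occurred in 10 members, or 17.5%, against 21.1% of all protein-coding genes. At Pcdhac1 they lay at position -67 from the start on the coding strand, and at Pcdhac2 at position 150 on the opposite strand, in a footprint of both libraries at each. Pcdhb15 and Pcdhb16, named after their values were seen, held them on the coding strand at positions -88 and -82, and that of Pcdhb16 lay in a footprint of replicate 2 alone. Pcdhgc3, Pcdhgc4 and Pcdhgc5 did not hold these letters in this window, which says nothing of other forms of the motif.

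Open sites, some of them strong, lay between and beyond the clusters, away from coding starts. Peaks more than 500 bp from any protein-coding start, from the first alpha gene to 250 kb after the last gamma exon, formed 71 sites, of which 29 were found in both libraries. Of these 29, 20 lay after the gamma cluster, 3 between the alpha and beta clusters, 3 in the gamma cluster, 2 in the alpha cluster, 1 in the beta cluster and 0 between beta and gamma. Their signals had a median of 1.83 (replicate 1) and 1.41 (replicate 2), and 26 of the 29 lay above the median of all peaks in each library. Sites found in only 1 library mostly lay below that median, so the requirement of both libraries by itself raises this count's share. For distal sites genome-wide, the share found in both libraries and the share of those above the median are not given. In the 250 kb after the gamma cluster there were 27 distal peaks in replicate 1 and 37 in replicate 2. The median over 9840 windows of that size along the genome was 7 and 14, and 3.82% and 0.986% of windows had at least as many.

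**Figure D4:**
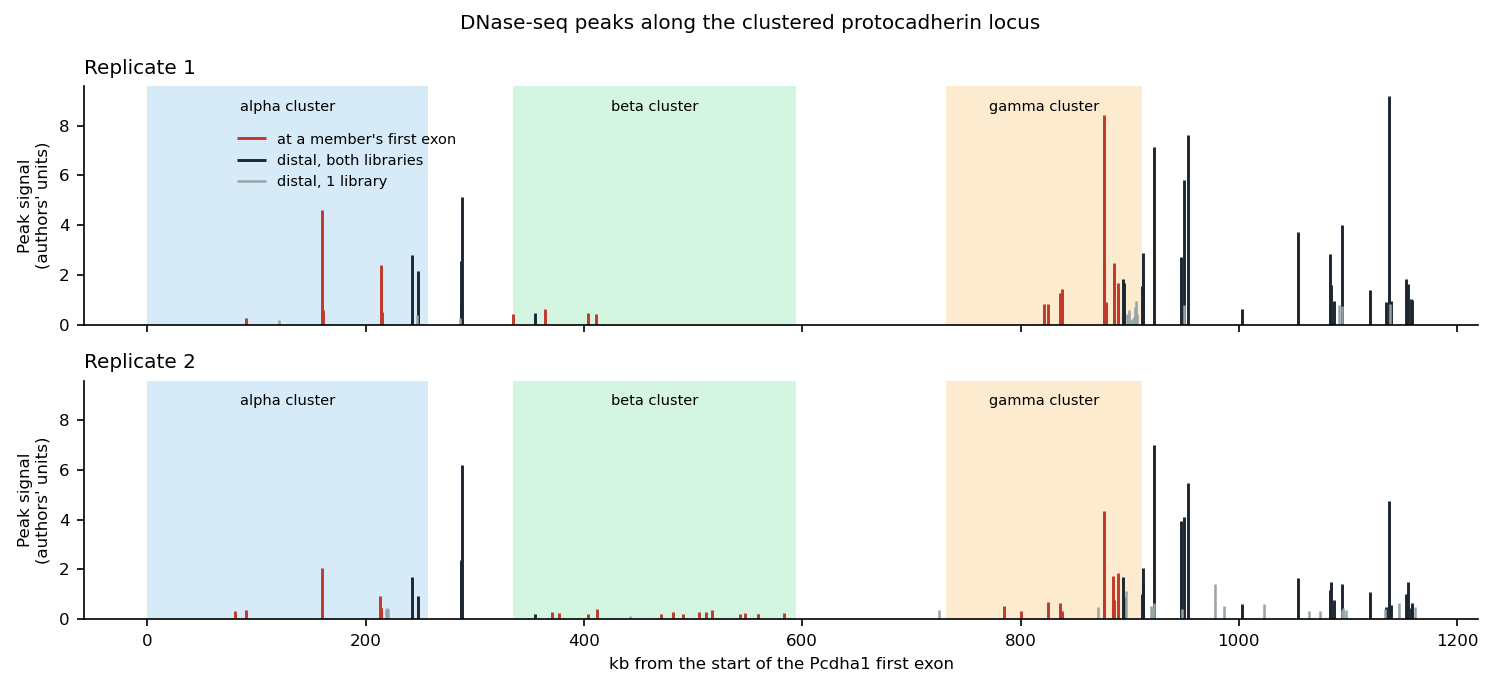
Signal of every peak (authors' units) along the locus, by distance in kb from the start of the Pcdha1 exon, with replicate 1 above and replicate 2 below; red lines are peaks at members, black lines distal sites of both libraries, grey lines distal sites of 1 library, and shaded blocks the 3 clusters. The tall black lines stand in the gap between alpha and beta and to the right of gamma. The highest reaches 9.18 in replicate 1 and, at a different site, 7.02 in replicate 2.

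Between the alpha and beta clusters, the strongest site (chr18:37218201-37218460) had 5.12 in replicate 1 and 6.20 in replicate 2, at percentiles 91.2 and 99.1. It lay 30540 bp after the end of the alpha genes and held 7 and 4 footprints, and no coding start was nearer than 46478 bp. Between the first exon of Pcdhac2 and the end of the alpha genes, the site chr18:37172281-37172500 had 2.81 and 1.68 and lay 64 bp from the start of the antisense transcript Gm38097. Both were stronger than any alpha gene outside the C-type, in each library.

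Of the 10 strongest distal sites, 8 lay after the gamma cluster, and all 10 held a footprint in both libraries. The 10 were picked by signal, and the share with a footprint among distal peaks of like rank was not worked out. The site at chr18:38068001-38068200 ranked highest by the smaller of its percentiles, with 9.18 and 4.76, and lay 226128 bp after the gamma cluster outside any protein-coding gene. Within Diaph1, the gene for a formin of the actin cytoskeleton that follows the cluster, 4 of the 10 were found. The site chr18:37852141-37852400 there had 7.16 and 7.02 and held the CTCF letters once, in a footprint of both libraries, 10268 bp after the gamma cluster. The site chr18:37883561-37883760 had 7.64 and 5.47, chr18:37880161-37880480 had 5.82 and 4.10, and chr18:37877181-37877580 had 2.73 and 3.93.

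Closest to the cluster, chr18:37842041-37842280 lay 168 bp after the last gamma exon and had 2.88 and 2.05. Farther out, chr18:37984381-37984580 in Arap3 had 3.72 and 1.66, and chr18:38024941-38025360 had 4.00 and 1.41 and held the CTCF letters in a footprint of both libraries. In all, 3 of the 29 sites found in both libraries held these letters, against 6.52% of distal peaks in replicate 1 and 4.13% in replicate 2 genome-wide. The files do not name enhancers, so these sites are given by position only.

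The gamma constant region differed between the libraries. From chr18:37828021-37837120, a stretch of 9.10 kb, replicate 1 had 12 distal peaks with signals between 0.106 and 0.950 that replicate 2 lacked. This stretch was singled out after its values were seen, and no cause was tested.

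Of the 20 coding genes around and between the clusters, 13 had a first-exon peak in both libraries. This was near the share of 58.9% over all protein-coding genes. All 5 coding genes in the 250 kb after the gamma cluster (Diaph1, Hdac3, Rell2, Fchsd1 and Arap3) and 7 of 10 in the 250 kb before the alpha cluster had a peak in both libraries. Before the cluster the highest by the smaller of their percentiles were Tmco6 with 15.2 in replicate 1 and 7.05 in replicate 2, Zmat2 with 9.51 and 6.61, and Ndufa2 and Ik, which shared a peak of 8.76 and 5.58, while E230025N22Rik, Cd14 and Dnd1 had none. Between the clusters, Taf7, the gene for a subunit of the general transcription factor TFIID, had 10.9 in replicate 1 and 4.83 in replicate 2, while Slc25a2, a mitochondrial carrier gene, had none. The gene models Gm42416, Gm37013 and Gm37388, which span the clusters, had none either. Their first exons lie inside those of alpha members, so they repeat these, yet they count among the 20 genes.

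Related genes elsewhere in the genome were open more often than the members. Non-clustered protocadherins do not share constant exons with each other. Of 12, 11 had a first-exon peak in both libraries, against 58.9% of all protein-coding genes. The highest by the smaller of their percentiles were Pcdh9 with 14.2 in replicate 1 and 5.49 in replicate 2, Pcdh10 with 14.0 and 6.42, and Pcdh17 with 12.7 and 5.41; Pcdh12, known from endothelium, had none. Of the large Fat, Dachsous and Celsr cadherins 7 of 9 were open in both, led by Celsr3, Fat4 and Fat1, while Fat2 had no peak and Dchs2 had one in replicate 1 alone.

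Genes for factors that shape or silence the clusters were open in both libraries in 17 of 19 cases, against 58.9% of all protein-coding genes. The highest ranks were at Smc3, a cohesin subunit, Yy1, a transcription factor, and Wapl, which releases cohesin from DNA. Named for their roles and outside the rule for named genes, Ctcf had 7.13 in replicate 1 and 2.44 in replicate 2, and Smchd1, a silencing factor that acts on the clusters, had 9.17 and 3.54. The exceptions were Stag1, a cohesin subunit, and Dnmt1, a DNA methyltransferase, whose farthest-upstream annotated first exon had no peak. At any annotated first exon, all 19 had one in both libraries, against 62.7% of all genes and 17.5% of the members. Genes for partners of the proteins, such as the kinase Ptk2b and the actin regulator Wasf1, were open in both in 12 of 14 cases. They were led by Wasf1, Rac1 and Prkca, and Ptk2b and Fyn had a peak in replicate 1 alone. At any annotated first exon all 14 had one in both libraries.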

How the data were processed

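DNase-seq peaks, footprints and base-level calls of 2 libraries were used. Per the file listings, the authors made every file from the filtered alignment (mm10) of its own library. The aligner and callers were not given in the sources used here. In the deposited peak lists each peak has a signal on an unstated scale. The deposited footprints carry a constant score of 0.01. The deposited FDR (q-value) files list runs under 0.05. The longer of each library's peak lists was the main one. A gene's first exon was exon 1 of the protein-coding transcript that starts farthest upstream in GENCODE M21, and overlaps of at least 1 bp with it or 500 bp on either side counted. Python 3.11.15, pandas 2.3.3 and NumPy 2.4.6 were used, and the overlap and word counts were tested on simulated data. GENCODE gives the symbol Pcdha11 to 2 genes, and RefSeq's name Pcdha10 was used for one of them.

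Members and lists were chosen with earlier results of these data known. No test was made, since there is 1 group. The text names all C-type genes and Pcdhb1, in each other group the 3 members with the highest smaller percentile and, where at most 6, those lacking a peak in a library, the 10 strongest distal sites, and of each other list the 3 highest genes and those lacking a peak in a library, except that markers are given by counts and by those lacking a peak; other members named are marked. Alternatives were other windows, peak lists, distances, FDR limits and motif letters, and leaving out each replicate; the window at the start with the shorter list, and any annotated first exon for all genes and lists, were added after seeing the data. One gene of the list of architectural and silencing factors is not reported here and was left out of its counts.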

Additional observations from a re-analysis of the deposited data

How the results depend on the processing

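With the shorter peak lists, 5 members had a peak in both libraries (Pcdhac1, Pcdhac2, Pcdhga12, Pcdhgc3 and Pcdhgc4), also in the window at the start alone; Pcdhgc5 dropped out. The median signal was then 2.38 in replicate 1 and 0.672 in replicate 2. The share over all genes with the shorter lists is not given. Members with a peak numbered 13 to 26 when either replicate was left out, with a footprint 13 to 22, and distal sites 51 to 52. Distal sites in both libraries were 16 within 100 kb after the clusters and 51 within 500 kb. The share of listed bases was 2.69% at an FDR under 0.01 and 9.52% within 500 bp of the start. The letters AGNNGGCG occurred in 20 members (50.9% of all genes), CAGNNGGC in 24 (61.2%), and AGNNGGCGC anywhere in the exon and its flanks in 33. For the count of 33 the share over all genes is not given. Its window is longer in members, whose first exons had a median of 2608 bp against 208 bp over all genes. The cause of these shifts was not tested beyond what each setting changes by construction. No paired analysis was possible because there is 1 group. Unknown depth, unstated signal scaling and 2 libraries limit all values, and all beta peaks except those of Pcdhb6 and Pcdhb7 rest on 1 library.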
